A study of Mus musculus with 72 samples.

Results

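The P522R variant of phospholipase C gamma-2 was examined in the cortex of male mice that develop amyloid plaques. The comparison set 6 male mice with the P522R variant on the 5xFAD background (P522R_5xFAD) against 6 male 5xFAD mice without a variant, which are 12 of the 36 mice of the series. Members were chosen by the genotype and sex in the labels, and all mice were 7.5 months old. Every mouse in the series carried the 5xFAD transgenes, which include mutant human APP and are driven by the neuronal Thy1 promoter, so both groups model plaque-bearing cortex and no mouse free of the transgenes enters any value below. For comparison, 6 P522R_5xFAD females, 6 5xFAD females and 6 M28L_5xFAD males, which carry another variant of the same enzyme, were used. The sources used here do not state how the variants were introduced or how many copies a mouse carried. Total cortical RNA was hybridised to the NanoString nCounter Glial and Neuropathology panels, which count fluorescent barcodes on a fixed set of transcripts without amplification, and 1266 genes were measured.

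Phospholipase C gamma-2, encoded by Plcg2, cleaves the membrane lipid phosphatidylinositol bisphosphate into inositol trisphosphate and diacylglycerol. Inositol trisphosphate opens calcium channels of the endoplasmic reticulum, and diacylglycerol with calcium activates protein kinase C. In brain the enzyme is found mainly in microglia, the resident macrophages, where it acts below the receptor TREM2 and its adaptor TYROBP, and human carriers of P522R have a lower risk of Alzheimer's disease. Plcg2 itself was not analysed here, so the values below concern its partners and the rest of the panels.

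Values are the deposited log2 levels, a difference is the mean of the P522R males minus the mean of the 5xFAD males on that scale, and a gene is called where limma's Benjamini-Hochberg adjusted p over the 1266 genes is below 0.05. Barcode totals recovered from the values were similar on the 757-gene panel, 1589745 to 1800708 per P522R male and 1428825 to 1775622 per 5xFAD male. On the 509-gene panel they were 259284 to 672936 and 462536 to 680262, and the lowest P522R total, of mouse 30, had been multiplied by 2.23 in the deposited values, where the highest such factor among the other males was 1.32. In a principal component analysis the second component, with 30.3% of the variance, placed the P522R males between 3.34 and 10.83 and the 5xFAD males between -5.62 and -1.10. The P522R females lay on the same side, at 2.79 to 11.48, and no assay run is named in the labels, so the variant and anything else that set the P522R mice apart, such as a separate assay run, cannot be told apart. Markers of cortex were present at high levels, with means over the 12 males of 14.73 for Snap25 of neurons and 14.45 for Slc1a2 of astrocytes. In bulk RNA, fewer cells of a type and less RNA per cell cannot be told apart.

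Of the 1266 genes, 640 (50.6%) were called in males, 339 higher (26.8%) and 301 lower (23.8%) with P522R. All 6 P522R males lay above all 6 5xFAD males for 213 genes (16.8%) and below them for 202 (16%). The median difference over all genes was 0.03, and 76 called genes were higher and 105 lower by more than 1.5-fold. After each mouse was centred on its own median, 660 genes (52.1%) were called, 385 higher and 275 lower. Of the 640, 614 then kept their call and direction. After centring within each panel 562 of the 640 did so, and after quantile normalization 545. Centring on the 2 housekeeping genes measured, Gusb and Tbp, left 419 calls, 156 higher and 263 lower, although Gusb itself differed by -0.35 (adjusted p 0.0255) and Tbp by 0.48 (adjusted p 2.35e-04). Among the genes named below it ended the calls of Bace1, Bdnf, Cspg4, Gpr17, Grin2a, Hk1, Icam2, Itpr1, Pgk1, Pik3ca, Slc1a3, Smad3, Sorl1, Tbr1 and Tmem119. With calls on about every other gene, the count within a gene group is read against these shares, and the size and separation of single genes carry more of the description.

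The size and direction of a difference varied with the level of a gene and with its panel. Among 86 genes with a mean log2 under 4, the median difference was 0.64, and 29 were called higher and 0 lower by limma. Among the 1031 genes at a mean of 6 or more it was -0.01. Within those, the 757-gene panel had 206 genes called higher and 130 lower, and the 509-gene panel had 69 higher and 160 lower. Of the 12 largest falls at that level, 11 were on the 509-gene panel, and of the 12 largest rises 9 were on the 757-gene panel. With each mouse centred within each panel, 400 genes of both panels together were called higher and 276 lower. Whether panel or level plays a part in single differences was not tested.

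**Figure D1:**
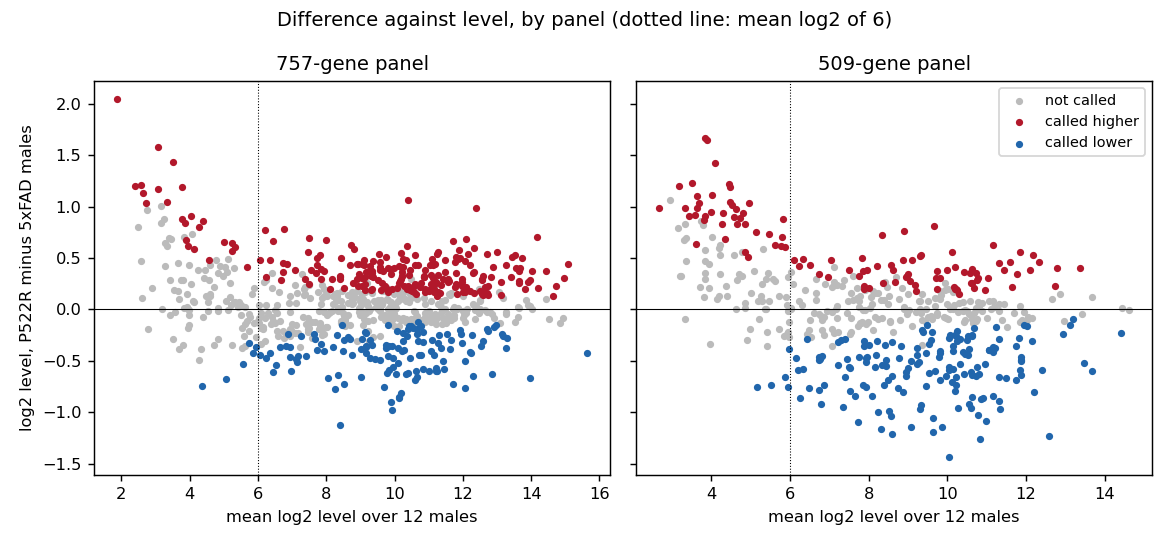
Difference of each gene (P522R males minus 5xFAD males, log2, vertical axis) against its mean log2 level over the 12 males (horizontal axis), for the 757-gene panel (left) and the 509-gene panel (right), with calls coloured. Below a mean of 4 the called genes are all higher, and at 6 or more the 509-gene panel holds 69 higher and 160 lower calls.

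The receptors upstream of the enzyme gave no call. Trem2, the lipid receptor of microglia, ranged from 8.08 to 9.19 in P522R males (median 8.77) and from 8.76 to 9.38 in 5xFAD males (median 9.01). Its difference was -0.31 (SE 0.18, adjusted p 0.139), and the groups overlapped. Tyrobp, the adaptor that carries the TREM2 signal, ranged from 10.04 to 10.94 in P522R males (median 10.77) and from 10.47 to 10.90 in 5xFAD males (median 10.72), with a difference of -0.07 (SE 0.16, adjusted p 0.763). Of 8 measured genes of TREM2 and immunoreceptor signalling, 0 were called higher and 3 lower by limma at its adjusted threshold, all of them subunits of phosphoinositide 3-kinase, which makes the lipid that recruits phospholipase C gamma to the membrane. Pik3r1, the regulatory subunit, ranged from 9.45 to 10.15 in P522R males (median 9.74) and from 10.41 to 10.79 in 5xFAD males (median 10.57). It fell by 0.81 (SE 0.10, adjusted p 8.76e-08) and the groups did not overlap. The catalytic subunit genes Pik3cb and Pik3ca fell by 0.29 and 0.21, and the Pik3ca call was also lost after quantile normalization or centring within panels. The kinases Src and Fyn and the adaptor Grb2 were not called, at differences of -0.09, 0.01 and -0.12.

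Insr, the insulin receptor, which signals through phosphoinositide 3-kinase, fell by 1.09 (adjusted p 7.40e-06), with 5 P522R males below every 5xFAD male and 1 overlapping.

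In the branch below phospholipase C, protein kinase C and calcium genes moved in both directions. Of 36 measured members, 11 were called higher and 8 lower, with a median difference of 0.11, and with housekeeping centring 4 were higher and 8 lower. Prkca, encoding protein kinase C alpha, ranged from 8.82 to 9.86 in P522R males (median 9.45) and from 10.53 to 11.01 in 5xFAD males (median 10.76). Its difference of -1.44 (SE 0.15, adjusted p 4.01e-10) was the largest fall among genes at a mean log2 of 6 or more, and the groups did not overlap. Prkcb, the beta isoform, ranged from 11.59 to 12.37 in P522R males (median 11.99) and from 13.01 to 13.38 in 5xFAD males (median 13.20) and fell by 1.24 (SE 0.11, adjusted p 7.03e-11), again without overlap. The isoforms Prkce, Prkcd and Prkcq were not called: Prkce differed by -0.06, Prkcd by 0.22 and Prkcq by 0.05. Outside the list, the atypical isoforms, which do not respond to diacylglycerol, were looked up after these values were seen, and Prkcz differed by -0.36 (adjusted p 1.11e-06) and Prkci by 0.00 (adjusted p 0.971).

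Further falls in the list were of the G protein subunit Gnaq, which activates the beta class of phospholipase C, at -0.85 (adjusted p 5.68e-07), of the calcineurin subunit Ppp3ca at -0.60, and of the calcium channel subunit Cacnb4 at -1.06. Camk2b, a subunit of the calcium and calmodulin kinase II of synapses, ranged from 11.02 to 11.35 in P522R males (median 11.19) and from 11.75 to 11.91 in 5xFAD males (median 11.84). It fell by 0.66 (SE 0.06, adjusted p 7.03e-11). In females its difference was -0.04 (adjusted p 0.577), and the difference between the sexes was called (-0.62, adjusted p 4.07e-06) also under the 4 other scalings. Other members rose. Ryr2, the ryanodine receptor, ranged from 10.27 to 10.54 in P522R males (median 10.43) and from 9.73 to 9.96 in 5xFAD males (median 9.85) and rose by 0.56 (SE 0.08, adjusted p 3.93e-07) without overlap. Itpr1, the inositol trisphosphate receptor, rose by 0.36, Plcb1 of the beta class of phospholipase C by 0.46, the channel Cacna1c by 0.48 and the calcium pump Atp2b3 by 0.51. For each of these 4 genes, all P522R males lay above all 5xFAD males.

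**Figure D2:**
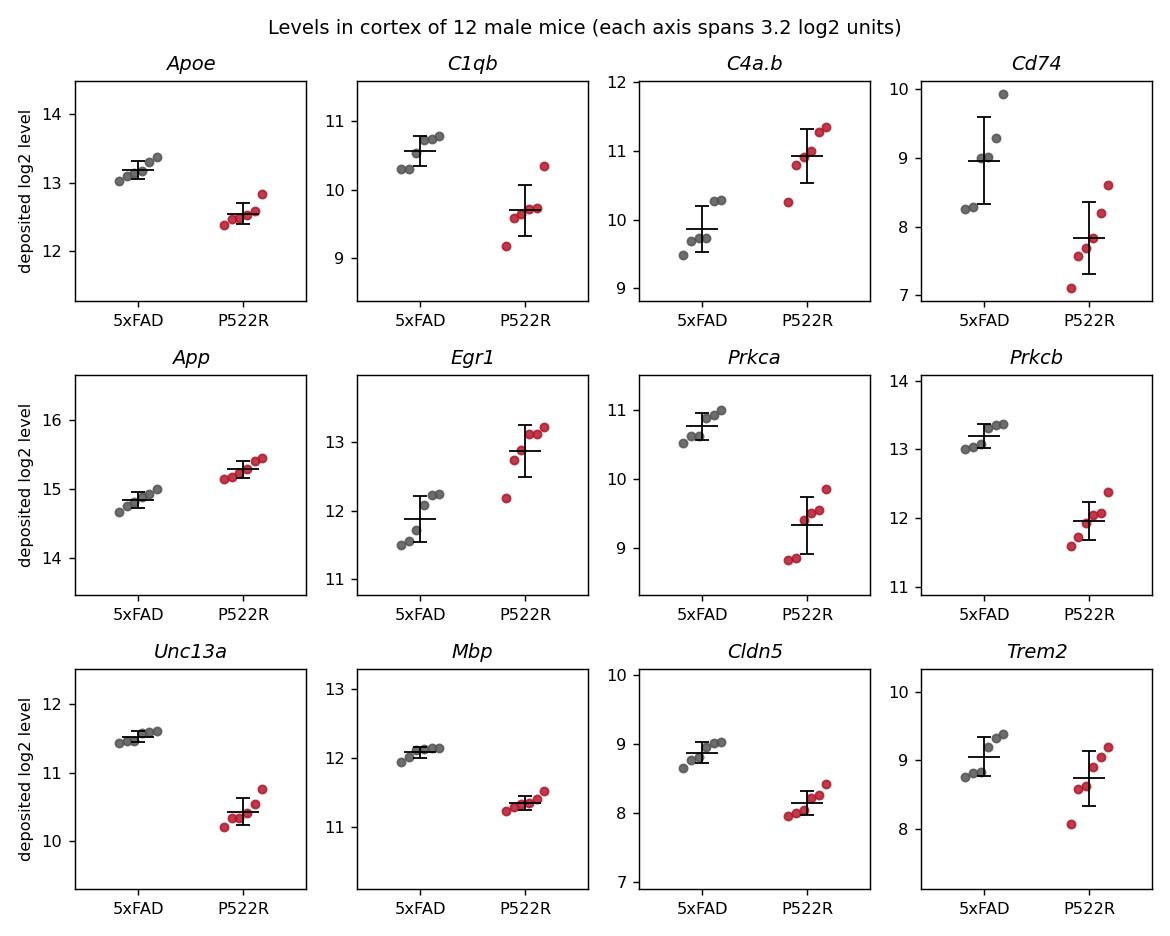
Deposited log2 level of 12 genes in each of the 12 males (points, sorted within a group), with the mean and SD of 6 mice (bars); each axis spans 3.2 log2 units. Prkca, Prkcb, Unc13a, Apoe, Mbp and Cldn5 lie lower and App higher in P522R males without overlap, while Trem2 overlaps.

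Microglia of amyloid mice take on a disease-associated state near plaques, in which genes such as Itgax, Gpnmb, Spp1, Apoe and Cst7 rise and homeostatic genes such as P2ry12 fall. Of 32 measured genes of the disease-associated state, 6 were called higher and 6 lower, with a median difference of 0.00, and with housekeeping centring 4 were higher and 9 lower. Itgax, the integrin CD11c, ranged from 5.30 to 7.44 in P522R males (median 6.65) and from 5.68 to 6.03 in 5xFAD males (median 5.79). It rose by 0.77 (SE 0.31, adjusted p 0.0386) with 5 P522R males above every 5xFAD male and 1 below every 5xFAD male. Gpnmb, a lysosomal glycoprotein of such cells, rose by 0.69 (SE 0.27, adjusted p 0.0305) and Spp1, osteopontin, by 0.63 (adjusted p 0.0330), both with overlapping groups. The Itgax call was lost without 5xFAD mouse 1177, 1181, 1182 or 1269 or P522R mouse 29, 30 or 31, with adjusted p from limma between 0.0565 and 0.121. The Gpnmb call was lost without 5xFAD mouse 1181, 1269 or 1270 or P522R mouse 29, 30 or 31, with adjusted p between 0.0516 and 0.108. Neither was called among the 10 males of the comparison that share an index number.

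Apoe, the lipid carrier of astrocytes and activated microglia, was 1 of 3 members, with Serpine2 and Fth1, whose groups were fully separated downward. It ranged from 12.38 to 12.84 in P522R males (median 12.51) and from 13.02 to 13.37 in 5xFAD males (median 13.16). The difference was -0.63 (SE 0.11, adjusted p 8.05e-06, 1.55-fold), and 6 of 6 P522R males lay below every 5xFAD male. Fth1, ferritin heavy chain, fell by 0.43, Serpine2, a protease inhibitor, by 0.50 and Cd9, a tetraspanin, by 0.36. Other genes of the state were not called in males: Clec7a differed by -0.28, Cst7 by 0.03, Lpl by 0.18, Axl by 0.26 and Cd68 by -0.27. The list thus held calls in both directions.

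Of 24 homeostatic microglial genes, 3 were called higher and 4 lower, with a median of -0.12. The balance varied with scaling, from 6 higher and 3 lower after quantile normalization to 1 and 6 with housekeeping centring. Aif1, which encodes the microglial protein IBA1, ranged from 7.70 to 8.16 in P522R males (median 7.79) and from 8.47 to 8.98 in 5xFAD males (median 8.61). It fell by 0.78 (SE 0.13, adjusted p 8.90e-06) without overlap, and fell by 0.82 in females. Tgfbr1, a receptor for TGF-beta, fell by 0.46, and Tgfbr2, Smad3 and Tmem119 rose by 0.35, 0.29 and 0.48. P2ry12, Cx3cr1 and Csf1r were not called, at 0.07, -0.31 and 0.12. The summed linear level of the 7 microglial markers, all measured, was 9244 to 12315 in 5xFAD males and 7434 to 12364 in P522R males, so that the groups overlapped.

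Complement genes moved in opposite directions. The subunits of C1q, the complement component that microglia make and that tags synapses, are encoded by 3 neighbouring genes on chromosome 4, and all were called lower. C1qb averaged 9.70 ± 0.37 in P522R males and 10.56 ± 0.22 in 5xFAD males (SD, n = 6 each), a difference of -0.86 (SE 0.15, adjusted p 7.24e-06). C1qc differed by -0.62 (adjusted p 4.26e-04) and C1qa by -0.58 (adjusted p 8.47e-04), and in each of the 3 genes 5 P522R males lay below every 5xFAD male and 1 overlapped. The probe shared by C4a and C4b, near-identical genes of the next complement component, ranged from 10.25 to 11.35 in P522R males (median 10.96) and from 9.48 to 10.28 in 5xFAD males (median 9.73). It rose by 1.06 (SE 0.19, adjusted p 2.36e-05, 2.09-fold), the largest rise among genes at a mean log2 of 6 or more, and the groups touched in 1 P522R male. A separate probe for C4a, at a mean log2 under 6, differed by 0.32 and was not called (adjusted p 0.268). After quantile normalization 5 of the 12 measured genes were lower. On the deposited scale the other 8 of 12 measured complement and Fc receptor genes, which include that C4a probe, were not called.

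For antigen presentation and interferon, 0 of 11 measured genes were called higher and 2 lower by limma. Cd74, the invariant chain that accompanies MHC class II, ranged from 7.11 to 8.61 in P522R males (median 7.76) and from 8.26 to 9.92 in 5xFAD males (median 9.01). The difference was -1.12 (SE 0.25, adjusted p 2.44e-04), with 5 P522R males below every 5xFAD male and 1 overlapping. M28L males had a Cd74 median of 7.39, also below that of the 5xFAD males. Psmb8, an immunoproteasome subunit, fell by 0.37 (adjusted p 0.0447), a call lost after quantile normalization, in a fit of the 12 males alone and without the trend in limma. It was also lost on leaving out 5xFAD mouse 1177, 1181, 1268, 1269 or 1270 or P522R mouse 21, 27 or 30, with adjusted p between 0.0598 and 0.153. B2m, H2.D1 and Ifit3 were not called, at -0.04, -0.10 and -0.16. Among 31 cytokines, chemokines and their receptors, 7 were called higher and 4 lower, and with housekeeping centring 5 and 5. Cx3cl1, the neuronal ligand of the microglial fractalkine receptor, ranged from 11.37 to 11.58 in P522R males (median 11.54) and from 10.76 to 11.11 in 5xFAD males (median 11.04). It rose by 0.54 (adjusted p 9.49e-04) without overlap, while Cxcl12 fell by 0.42 (adjusted p 6.52e-06). Tnf, Il6 and Il1b were at means of 3.4 to 4.6 and not called, at 0.02, 0.07 and 0.68.

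Lysosomal and autophagy genes were called higher in 8 and lower in 3 of 25, with a median of 0.15, and with housekeeping centring in 5 and 4. Gaa, the lysosomal alpha-glucosidase, ranged from 12.32 to 12.68 in P522R males (median 12.40) and from 11.66 to 12.16 in 5xFAD males (median 11.92) and rose by 0.53 (SE 0.12, adjusted p 2.41e-04). Npc1, the cholesterol exporter of lysosomes, rose by 0.41, and Npc2, its soluble partner, fell by 0.58. Naglu, which degrades heparan sulphate, fell by 0.49. Of 9 lipid-handling genes 3 were called higher and 2 lower. Besides Apoe, the cholesterol pump Abca1, which loads lipid onto apolipoprotein E, ranged from 8.45 to 8.58 in P522R males (median 8.55) and from 8.73 to 9.10 in 5xFAD males (median 8.99), and fell by 0.44 (SE 0.08, adjusted p 3.41e-05) without overlap. Lrp1, a receptor that takes up apolipoprotein E, ranged from 11.89 to 12.43 in P522R males (median 12.13) and from 11.41 to 11.75 in 5xFAD males (median 11.57), and rose by 0.56 (SE 0.11, adjusted p 1.14e-04), again without overlap.

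App, which encodes the amyloid precursor protein, ranged from 15.15 to 15.45 in P522R males (median 15.26) and from 14.67 to 15.00 in 5xFAD males (median 14.85). It rose by 0.44 (SE 0.09, adjusted p 1.01e-04, 1.36-fold) without overlap. The mice also carry a human APP transgene, and the sources used here do not state whether this probe reads its transcript. Of 13 genes of amyloid precursor and tau processing, 4 were called higher and 3 lower, and with housekeeping centring 2 and 3. Bace1, the beta-secretase, and Aplp2, a homologue of App, rose by 0.39 and 0.41, and the sorting receptor Sorl1 rose by 0.40. Adam10, the alpha-secretase, ranged from 9.41 to 9.77 in P522R males (median 9.50) and from 9.93 to 10.15 in 5xFAD males (median 9.99) and fell by 0.47 (adjusted p 8.78e-06). Bin1, a membrane-bending protein near a risk locus for the disease, fell by 0.44 (adjusted p 9.96e-08) and Gsk3b, a tau kinase, by 0.29, both without overlap. Psen2, a subunit of gamma-secretase, differed by 0.12 and was not called.

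Immediate early genes, which neurons transcribe within minutes of activity, were called higher in 5 and lower in 0 of 9 measured members. Their median was 0.52 against 0.03 over all genes, and with housekeeping centring 4 were higher and 0 lower. Egr1, a zinc finger factor, ranged from 12.18 to 13.21 in P522R males (median 12.99) and from 11.49 to 12.24 in 5xFAD males (median 11.89). It rose by 0.99 (SE 0.15, adjusted p 1.11e-06, 1.98-fold), and 5 of 6 P522R males lay above every 5xFAD male. Arc, which regulates AMPA receptor traffic at synapses, ranged from 9.29 to 10.48 in P522R males (median 10.20) and from 8.81 to 9.58 in 5xFAD males (median 9.32), a rise of 0.81 (SE 0.25, adjusted p 0.00636) with overlap. Npas4 and Fos, transcription factors of activated neurons, and Bdnf, a neurotrophin, rose by 0.52, 0.68 and 0.31 (adjusted p 0.0403, 0.0473 and 0.0224). The Bdnf call was lost without 5xFAD mouse 1177 (adjusted p 0.0723). The Fos call was lost after centring within panels and without the trend or with the robust option in limma. It was also lost without 5xFAD mouse 1177, 1181, 1268 or 1270 or P522R mouse 23, 27, 30 or 31, with adjusted p between 0.0663 and 0.114. Jun, Nr4a2, Egr2 and Homer1 were not called, at 0.01, 0.18, 0.59 and -0.11. Against M28L males, the differences of the same P522R males were 0.40 for Egr1 (adjusted p 0.0231), -0.21 for Arc (adjusted p 0.506) and -0.02 for Fos (adjusted p 0.947). The M28L males themselves averaged 12.47, 10.28 and 8.35 for Egr1, Arc and Fos, against 11.88, 9.26 and 7.64 in 5xFAD males. For Bdnf both groups averaged 8.89. Higher levels of Egr1, Arc and Fos than in 5xFAD males were thus not particular to P522R males.

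The promoters of activity genes often hold a site for the factor CREB, and those of Fos and Npas4, the called members with 1 listed start, are shown for that reason. RefSeq windows on GRCm38.p6, from 250 bases before to 50 bases after each start, were found for 7 of the 9 members. Arc and Egr1 had no entry. Capitals mark the half-site TGACG on either strand.
Fos promoter, chr12:85473640-85473939, plus strand: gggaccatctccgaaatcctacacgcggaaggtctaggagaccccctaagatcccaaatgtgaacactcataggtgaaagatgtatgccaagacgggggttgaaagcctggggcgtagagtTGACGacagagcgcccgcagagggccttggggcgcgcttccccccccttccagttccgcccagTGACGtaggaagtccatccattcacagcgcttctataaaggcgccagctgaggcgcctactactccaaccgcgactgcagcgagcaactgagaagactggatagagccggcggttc
Npas4 promoter, chr19:4989922-4990221, minus strand: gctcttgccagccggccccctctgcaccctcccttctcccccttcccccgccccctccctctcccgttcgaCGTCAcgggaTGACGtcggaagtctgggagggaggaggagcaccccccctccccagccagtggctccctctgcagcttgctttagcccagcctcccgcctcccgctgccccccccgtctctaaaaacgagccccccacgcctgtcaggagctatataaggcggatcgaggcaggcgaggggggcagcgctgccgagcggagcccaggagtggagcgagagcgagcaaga
Both windows held 2 half-sites, and 6 of the 7 members held at least 1 in a listed window. Of the 18 windows of all 7 members, 8 held a half-site. Overlapping windows of Egr2 hold the same sites and are counted separately among these. The half-site occurred in 20.8% of 32851 promoters of this length, and Egr2, Nr4a2 and Homer1, which were not called, held it too. That share is per window, so it is not to be set against the count of members, some of which have several windows. The full site TGACGTCA, which contains the half-site, was in no window of these members and in 1.79% of all promoters.

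**Figure D3:**
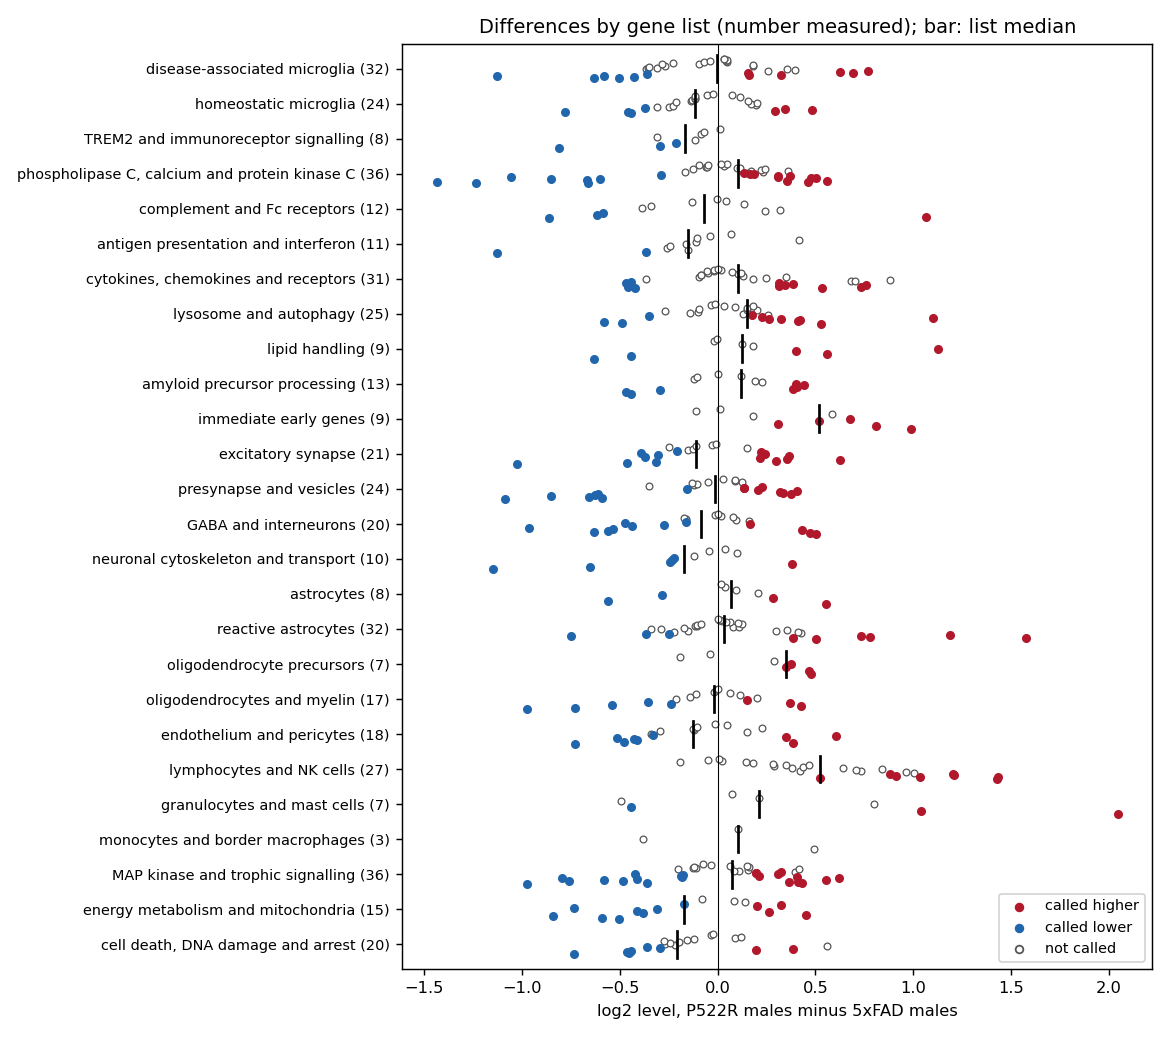
Difference of each measured gene (P522R males minus 5xFAD males, log2) within 26 gene lists, with called genes filled and the list median as a bar. Most lists hold calls in both directions, and the immediate early genes have 5 called higher and 0 lower.

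Synaptic genes were called in both directions. Of 21 genes of excitatory synapses 7 were called higher and 7 lower on the deposited scale, and 1 and 6 with housekeeping centring. Grin2b, the NMDA receptor subunit GluN2B, ranged from 9.91 to 10.48 in P522R males (median 10.35) and from 11.02 to 11.50 in 5xFAD males (median 11.30). It fell by 1.02 (SE 0.10, adjusted p 4.01e-10) without overlap. Grin1, the obligate subunit of the same receptor, ranged from 11.35 to 11.62 in P522R males (median 11.46) and from 10.66 to 11.14 in 5xFAD males (median 10.82), and rose by 0.63 (SE 0.13, adjusted p 1.15e-04), also without overlap. Grin2a, another subunit, rose by 0.35, and the scaffold Dlg4 (PSD-95) and the AMPA receptor subunit Gria1 fell by 0.46 and 0.32. Slc17a7, the vesicular glutamate transporter of cortical excitatory neurons, was not called (-0.03, adjusted p 0.810).

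In the presynapse, 8 of 24 genes were called higher and 7 lower. Quantile normalization gave 4 and 8, and housekeeping centring 2 and 7. Unc13a, which primes vesicles for release, ranged from 10.21 to 10.76 in P522R males (median 10.38) and from 11.43 to 11.61 in 5xFAD males (median 11.52). It fell by 1.09 (SE 0.08, adjusted p 1.05e-12), the spread within each group being small against the gap. The active zone gene Rims1 fell by 0.63, the clathrin adaptor Snap91 by 0.59 and the fission protein Dnm1l by 0.85. Cltc, the clathrin heavy chain, was on the other side. It ranged from 14.42 to 14.63 in P522R males (median 14.50) and from 13.69 to 13.93 in 5xFAD males (median 13.86) and rose by 0.70 (SE 0.07, adjusted p 1.44e-10), and the synapsin Syn1 and the fusion ATPase Nsf rose by 0.41 and 0.37.

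Of 20 genes of inhibitory neurons 4 were called higher and 8 lower. The enzymes that make GABA rose: Gad1 ranged from 11.96 to 12.15 in P522R males (median 12.07) and from 11.52 to 11.64 in 5xFAD males (median 11.53), a difference of 0.51 (SE 0.05, adjusted p 1.22e-09). Gad2 ranged from 12.18 to 12.47 in P522R males (median 12.30) and from 11.73 to 11.97 in 5xFAD males (median 11.83), a difference of 0.47 (SE 0.06, adjusted p 1.13e-08). Neither gene overlapped between the groups. Slc32a1, which loads GABA into vesicles of the same cells, ranged from 10.29 to 10.74 in P522R males (median 10.47) and from 10.95 to 11.17 in 5xFAD males (median 11.02), and fell by 0.56 (SE 0.08, adjusted p 4.20e-07) without overlap. Of interneuron subtype genes 4 fell: Npy by 0.63, Calb2 by 0.47, Pvalb by 0.44 and Vip by 0.28. Centring within panels ended the Calb2 and Vip calls. Gad1 and Gad2 are on the 757-gene panel and these 5 falling genes are on the 509-gene panel. The receptor subunit Gabrb2 fell by 0.96.

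Of 10 genes of the neuronal cytoskeleton and transport 1 was called higher and 5 lower, and with housekeeping centring 0 and 2 by limma. Kif3a, a kinesin motor subunit, ranged from 9.08 to 9.61 in P522R males (median 9.30) and from 10.21 to 10.70 in 5xFAD males (median 10.42), and fell by 1.15 (SE 0.10, adjusted p 1.71e-11). Map2, the microtubule protein of dendrites, ranged from 11.84 to 12.28 in P522R males (median 11.96) and from 12.43 to 12.81 in 5xFAD males (median 12.65), and fell by 0.65 (SE 0.08, adjusted p 2.65e-08). Tbr1, a factor of deep-layer excitatory neurons, rose by 0.38 (adjusted p 2.00e-04). The summed level of the 5 neuronal markers measured of 7 was 41085 to 44256 in 5xFAD males and 43784 to 50514 in P522R males.

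Among astrocyte genes, of 8 measured markers 2 were called higher and 2 lower, with a median of 0.07. Median centring or quantile normalization gave 3 and 1, and housekeeping centring 1 and 2. Gfap, the filament protein of reactive astrocytes, ranged from 11.38 to 12.41 in P522R males (median 12.20) and from 11.81 to 12.47 in 5xFAD males (median 12.04). Its difference was 0.00 (SE 0.17), it was not called, and the groups overlapped. Slc1a3, a glutamate transporter, rose by 0.28, and S100b fell by 0.56 (adjusted p 1.32e-04). Of 32 genes of reactive astrocytes 6 were called higher and 3 lower. Serpina3n, a protease inhibitor of reactive astrocytes, averaged 7.15 ± 0.36 in P522R males and 6.37 ± 0.29 in 5xFAD males (SD, n = 6 each). It rose by 0.78 (SE 0.23, adjusted p 0.00525) with overlap, and the prostaglandin synthase Ptgs2 rose by 0.50. Vim, vimentin, fell by 0.25, a call that median centring or quantile normalization ended. The summed level of the 5 astrocyte markers measured of 6 was 32277 to 36453 in 5xFAD and 30843 to 38981 in P522R males.

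In the oligodendrocyte lineage, several precursor genes rose and myelin genes were divided. Of 7 precursor genes 4 were called higher and 0 lower by limma, with a median of 0.35, and 2 were higher with housekeeping centring. Pdgfra, the growth factor receptor of precursors, ranged from 9.20 to 9.56 in P522R males (median 9.32) and from 8.65 to 9.03 in 5xFAD males (median 8.86), and rose by 0.48 (SE 0.08, adjusted p 7.64e-06) without overlap. Ptprz1, Gpr17 and Cspg4 rose by 0.46, 0.38 and 0.35, the last a call also lost without 5xFAD mouse 1270 (adjusted p 0.0524 by limma), and the lineage factors Olig1 and Sox10 were not called, at -0.19 and -0.04. The 2 precursor markers are Pdgfra and Cspg4, so their sum restates these rises and is no separate evidence. It was 556 to 736 in 5xFAD and 809 to 1019 in P522R males, without overlap. Of 17 genes of mature oligodendrocytes and myelin 3 were called higher and 5 lower.

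Mbp, myelin basic protein, ranged from 11.23 to 11.52 in P522R males (median 11.34) and from 11.94 to 12.15 in 5xFAD males (median 12.12). It fell by 0.73 (SE 0.07, adjusted p 1.16e-10), and Bcas1, a gene of early myelinating cells, ranged from 9.25 to 9.68 in P522R males (median 9.43) and from 10.24 to 10.58 in 5xFAD males (median 10.38) and fell by 0.97 (SE 0.07, adjusted p 1.32e-13). Both were without overlap. Ugt8a, which makes myelin galactolipid, rose by 0.43 (adjusted p 4.98e-05), and Mog and Mag were not called, at 0.00 and -0.21. The summed level of the 4 mature markers measured of 6 was 18351 to 22036 in 5xFAD males and 20449 to 25773 in P522R males.

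Several endothelial genes fell in P522R males. Of 18 genes of endothelium and pericytes, 6 were called lower and 3 higher, and the 6 lower genes are of endothelium. Cldn5, the tight junction protein of the blood-brain barrier, ranged from 7.96 to 8.42 in P522R males (median 8.13) and from 8.66 to 9.04 in 5xFAD males (median 8.89). It fell by 0.73 (SE 0.12, adjusted p 9.60e-06) without overlap. The growth factor receptor Flt1 fell by 0.51, the adhesion protein Pecam1 by 0.48, the sialomucin Emcn by 0.43, the efflux pump Abcb1a by 0.41 and Icam2 by 0.33, the last a call that median centring ended. Pdgfrb and Cspg4, expressed by pericytes, rose by 0.60 and 0.35. Cspg4 is also counted among the precursor genes above, and its call was lost with housekeeping centring or without 5xFAD mouse 1270. The 3 endothelial markers measured of 4 are Cldn5, Flt1 and Pecam1, so their sum restates these falls and is no separate evidence. Their summed level was 711 to 893 in 5xFAD males and 468 to 616 in P522R males, without overlap. The part that the share of vessels in the dissected tissue plays was not tested.

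In females none of the 18 was called lower. Cldn5 differed by -0.24 in females (adjusted p 0.101), Flt1 by 0.59 (adjusted p 5.41e-04) and Pecam1 by 0.09 (adjusted p 0.515). There, 10 of the 18 were called higher by limma, with a median of 0.33 against -0.12 in males. Over all 1266 genes, 498 were called higher in females, with a median of 0.12. The difference between the sexes was called for 10 of the 18, all with the male value lower. Over all genes it was called for 264 (20.9%), with the male value lower in 199 and a median of -0.10. Among the 18 that count was 4 after median centring, 7 after centring within panels, 4 after quantile normalization and 2 with housekeeping centring. In each setting the male value was the lower. Flt1 was called under all 5 scalings (-1.11, adjusted p 1.56e-04 as deposited), and Cldn5 under the deposited scale alone (-0.49, adjusted p 0.0436).

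**Figure D4:**
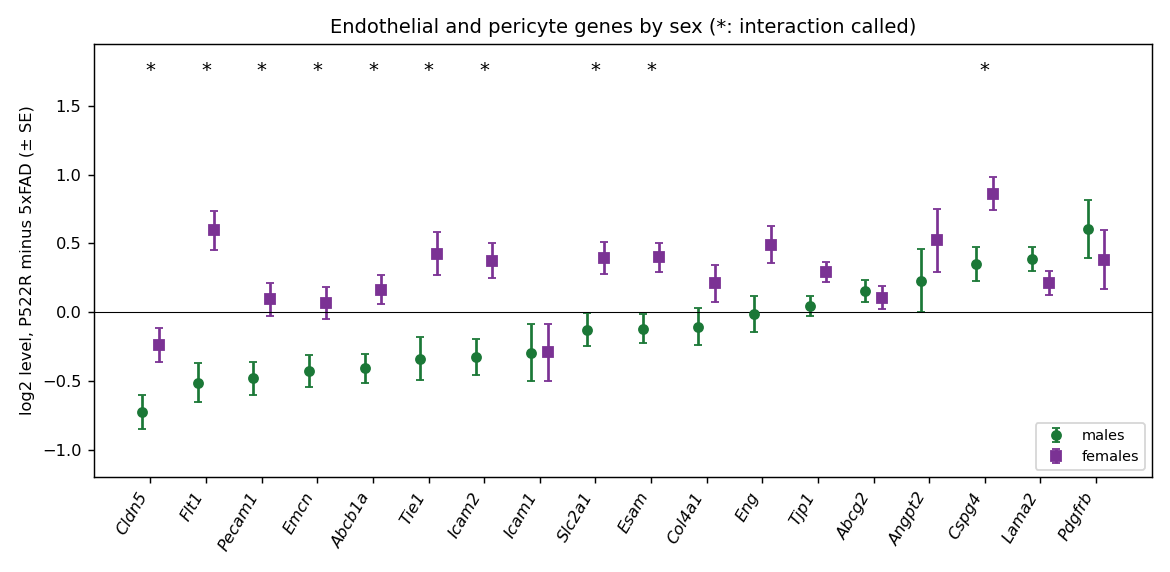
Difference of P522R from 5xFAD mice (log2, mean ± SE of the limma fit, 6 mice per group) for 18 endothelial and pericyte genes in males (circles) and females (squares), with a star where the difference between the sexes was called on the deposited scale. Cldn5, Flt1 and Pecam1 lie below 0 in males, and Flt1 lies above 0 in females.

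Genes of lymphocytes and natural killer cells were near the bottom of the scale. Of 27 measured, 8 were called higher and 0 lower by limma, with a median of 0.53, and 26 had a mean log2 under 6. After quantile normalization 2 were called higher and 1 lower, with a median of 0.06, and with housekeeping centring 4 were higher. Fasl, a death ligand of cytotoxic cells, ranged from 4.52 to 5.18 in P522R males (median 4.71) and from 2.82 to 3.73 in 5xFAD males (median 3.59), and rose by 1.43 (SE 0.27, adjusted p 4.88e-05). Cd3d, a subunit of the T cell receptor complex, ranged from 3.52 to 4.83 in P522R males (median 4.31) and from 1.68 to 3.72 in 5xFAD males (median 2.92), and rose by 1.43 (SE 0.43, adjusted p 0.00523), a call that quantile normalization ended. Over all 86 genes under a mean of 4, whatever their cell type, the median recovered count per mouse was 9 to 10 in 5xFAD males and 12 to 15 in P522R males, and the median difference was 0.64. Over the 235 genes under a mean of 6 it was 0.30. On the 757-gene panel, which holds 25 of the 27 members, these medians were 0.45 and 0.18. The 7 markers of T, B and natural killer cells measured of 8 are among the 27 members. Their summed level was 60.9 to 72.0 in 5xFAD and 83.7 to 125 in P522R males, and its part in these rises was not tested. Cd4, the single member above 6, also expressed by some macrophages, ranged from 7.77 to 8.53 in P522R males (median 8.08) and from 7.33 to 7.94 in 5xFAD males (median 7.57), and rose by 0.53 (adjusted p 7.24e-04).

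The largest folds of the table were also of genes with few counts. Tpsb2, a mast cell tryptase, ranged from 2.56 to 3.33 in P522R males (median 2.87) and from -0.08 to 2.02 in 5xFAD males (median 0.56), a difference of 2.05 (SE 0.50, adjusted p 9.14e-04) at a mean of about 4.8 counts. After quantile normalization it was not called (0.64, adjusted p 0.191 by limma). Gabrr1, a GABA receptor subunit of retina, and Pla2g4d, a phospholipase A2, differed by 1.66 and 1.65, both at a mean log2 under 4. Among called genes below a mean log2 of 6 the largest falls were of Taf4b (-0.76), Adcyap1 (-0.76) and Gbp2 (-0.75). Of 7 granulocyte and mast cell genes 2 were called higher and 1 lower, with a median of 0.21. Quantile normalization turned that direction, with 0 called higher and 2 lower by limma and a median of -0.42. Of 3 monocyte and border macrophage genes 0 were called by limma on the deposited scale and 1 was lower after quantile normalization, and Cd163 had the smallest adjusted p on the deposited scale (0.0875, difference 0.49).

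Signalling through MAP kinases and growth factors, which lies downstream of many receptors, had 11 of 36 genes called higher and 11 lower. Median centring gave 15 and 10, and housekeeping centring 5 and 8. Map2k2, the kinase MEK2, ranged from 8.54 to 9.06 in P522R males (median 8.89) and from 9.71 to 9.87 in 5xFAD males (median 9.81). It fell by 0.97 (SE 0.09, adjusted p 7.25e-11), while Map2k1, its paralogue MEK1, rose by 0.37 (adjusted p 4.94e-07). Hras, a Ras family GTPase, fell by 0.41, and Braf and Mapk14, the kinase p38 alpha, rose by 0.41 and 0.43. Rasgrp1, an exchange factor for Ras that is activated by diacylglycerol, ranged from 13.14 to 13.38 in P522R males (median 13.33) and from 12.65 to 12.80 in 5xFAD males (median 12.75). It rose by 0.56 (SE 0.05, adjusted p 2.82e-11) without overlap. Ccnd1, cyclin D1, and the splicing factor Prpf31 fell by 1.16 and 1.22. Nfe2l2, the antioxidant factor NRF2, and Fn1, fibronectin, rose by 0.72 and 0.76, each without overlap.

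Of 15 genes of energy metabolism and mitochondria, 4 were called higher and 8 lower, with a median of -0.17, and with housekeeping centring 1 and 7. Sod2, the mitochondrial superoxide dismutase, ranged from 10.36 to 11.20 in P522R males (median 10.78) and from 11.37 to 11.80 in 5xFAD males (median 11.59) and fell by 0.84 (SE 0.12, adjusted p 7.04e-07). Park7 (DJ-1), a redox sensor, ranged from 11.60 to 11.66 in P522R males (median 11.62) and from 12.09 to 12.20 in 5xFAD males (median 12.13) and fell by 0.51 (SE 0.05, adjusted p 1.42e-10). Opa1, which fuses inner membranes, and Sod1 fell by 0.59 and 0.41, and Mfn2, which fuses outer membranes, rose by 0.45. The glycolytic enzymes Hk1 and Pgk1 rose by 0.33 and 0.20 (the Pgk1 call also being lost after quantile normalization). Of 20 genes of cell death, DNA damage and arrest, 2 were called higher and 6 lower. Xiap, an inhibitor of caspases, fell by 0.73 (adjusted p 2.41e-05).

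The male differences were set against those of P522R females from 5xFAD females, which share no mouse with them. In females 762 genes (60.2%) were called, 498 higher and 264 lower. Of the 640 male calls, 428 were called in the same direction in females (66.9% of the male and 56.2% of the female calls), and 33 in the opposite direction. Across the 1031 genes at a mean log2 of 6 or more the male and female differences had a Pearson r of 0.72 and a Spearman rho of 0.69, a description across genes, which are not independent. The female groups differed more in depth, with totals on the 757-gene panel of 953461 to 1239109 in 5xFAD and 1295271 to 1957325 in P522R females. Egr1 differed by 1.07, C4a.b by 0.77, Prkca by -0.99, Gad1 by 0.54 and App by 0.55 in females, and each of these 5 was called with the sign it had in males.

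The difference between the sexes was called for 264 genes (20.9%), with the male value lower in 199 and higher in 65. This split depends on scaling. The median male-minus-female difference over all genes was -0.10 as deposited and 0.02 after median centring, which gave 258 calls, 95 with the male value lower and 163 higher. Centring within panels gave 128 lower and 89 higher, quantile normalization 111 and 130, and housekeeping centring 56 and 0. Genes called under all 5 scalings included Rnf10, a ubiquitin ligase, which fell by 0.60 in males and rose by 0.28 in females. Its difference between the sexes was -0.87 (SE 0.10, adjusted p 2.68e-07). Tln2, a linker of integrins to actin, fell by 0.43 in males and rose by 0.26 in females (adjusted p of the difference 3.96e-06).

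Cd74 differed by -1.12 in males and 0.27 in females (difference -1.39, adjusted p 0.00415), and Atcay, a brain protein of vesicle transport, by -0.96 and -0.23 (adjusted p of the difference 2.10e-06). Unc13a, Grin2b and Mbp fell in both sexes and further in males, at -0.66, -0.70 and -0.51 for the difference between the sexes. All 5 of these were called under the 5 scalings. For Apoe the difference between the sexes (-0.49, adjusted p 0.0190) was called as deposited and after centring within panels, and not after the 3 other scalings. For Cltc the male difference was the higher (0.31), a call lost with housekeeping centring.

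**Figure D5:**
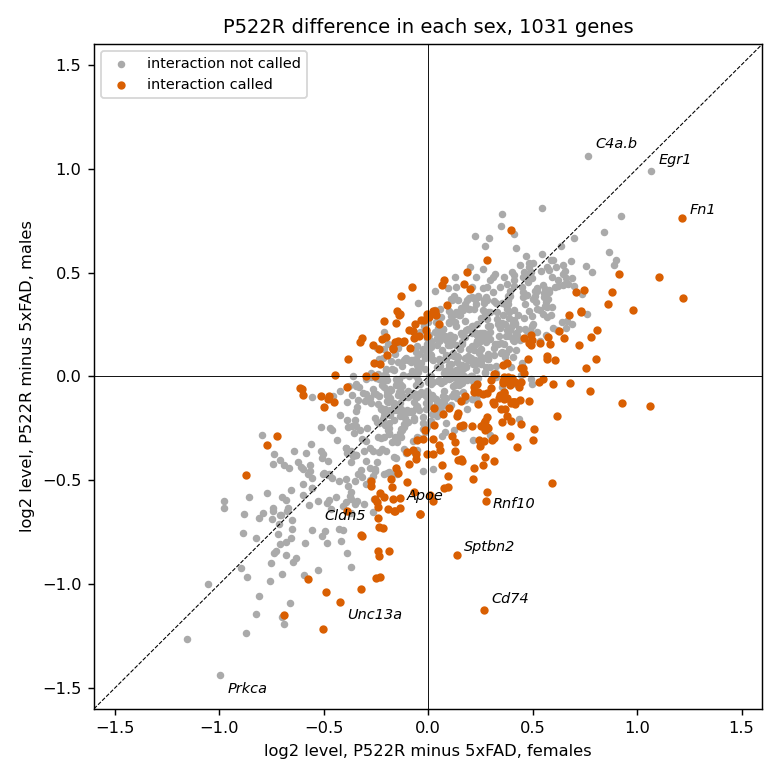
Difference of P522R from 5xFAD mice in males (vertical axis) against females (horizontal axis), both log2, for the 1031 genes at a mean log2 of 6 or more; the dashed line marks equal differences and orange marks a called difference between the sexes. Egr1 lies near the line, at 0.99 in males and 1.07 in females, and Rnf10 and Cd74 lie below it.

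Against M28L males, which carry the other variant, the P522R males differed in 633 genes (50%), 335 higher and 298 lower. Housekeeping centring gave 435 calls, 77 higher and 358 lower. The M28L males differed from the 5xFAD males in 26 genes, 11 higher and 15 lower, by the same fit. These comparisons share the P522R or the 5xFAD males with the main comparison, so their values are given side by side only. Unc13a differed by -1.13 from M28L and -1.09 from 5xFAD males, Bcas1 by -0.86 and -0.97, Prkca by -1.38 and -1.44, and Apoe by -0.63 and -0.63. Itgax had a median of 6.65 in P522R and 4.22 in M28L males (adjusted p 3.48e-07) and a difference from 5xFAD males of 0.77, and Gpnmb differed by 1.74 from M28L (adjusted p 1.47e-06) and 0.69 from 5xFAD males. Cd74 and Cldn5 did not pass the threshold against M28L males, at 0.42 (adjusted p 0.151) and -0.16 (adjusted p 0.284).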

How the data were processed

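RNA from cortex was extracted with a PureLink kit and assayed on NanoString nCounter panels, per the labels' protocols. The authors deposited log2 values for each mouse, with both panels joined. Their normalization was not given in the sources used here. Of 1517 rows, 251 were empty and unnamed, which left 1266 genes in 36 mice. The values were whole multiples of 1 step per mouse and panel (100% within 0.05 counts), which gave the counts used for depth only and separated the 757-gene and 509-gene panels. No within-group pair of mice agreed within sampling noise.

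A limma fit (version 3.58.1, R 4.3.3) of 6 group means over the 36 mice, with a trend in the empirical Bayes step, was tested two-sided with Benjamini-Hochberg adjustment over 1266 genes at 0.05, and checked on simulated data. Alternatives were median centring, centring within panels, quantile and housekeeping normalization, a pseudocount of 20, a mean log2 of at least 5, other limma options, the males alone, leaving out each mouse, and the index number of the labels as a block. Same-numbered males had correlations of deviations from -0.48 to 0.12, so the numbers were not taken as pairs.

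A rule named 106 genes: Trem2, Tyrobp, Apoe and App, the 12 largest rises and falls at a mean log2 of 6 or more, the 3 below it, up to 3 genes of smallest p per list, and 6 per further contrast. Other list members named for description were chosen after their values were seen. The members and the 26 lists were chosen with earlier results of these data known. Promoters came from RefSeq, GRCm38.p6. The number of mice and of counts limits precision. Each p-value weighs a difference against the spread between mice, pooled over the 6 groups for each gene. It would not cover an assay run shared by the P522R mice. Some genes of the panels are counted in the lists and totals but are not reported here by name.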

Additional observations from a re-analysis of the deposited data

Results flagged for a closer look

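In 8 of 212 checks a single mouse stood apart from the other 5 of its group by Dixon's test. Chance gives about 1 in 20, a rate that this count did not exceed. P522R mouse 29 accounted for 4 of them. It was the highest of its group for Serpine2 (11.40, the others 11.08 to 11.16), Map2 (12.28, the others 11.84 to 12.00) and Gnai2 (11.74, the others 11.49 to 11.54), and the lowest for Cx3cl1 (11.37, the others 11.51 to 11.58). For these 4 genes mouse 29 was nearer to the 5xFAD males than the rest of its group. Among 5xFAD males, mouse 1181 was the highest for Prpf31 (9.37, the others 9.13 to 9.20) and the lowest for Egfr (6.88, the others 7.21 to 7.33). Mouse 1182 was the lowest for Psmb8 (6.58, the others 7.11 to 7.39) and mouse 1177 the lowest for Bdnf (8.58, the others 8.89 to 9.01).

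For 29 of the 106 named genes the male and female differences of P522R from 5xFAD mice were themselves different by limma's interaction contrast. Over all 1266 genes this contrast was called for 264 (20.9%). The naming rule took 6 genes for their smallest p in this same contrast, so their calls were fixed by the rule. Many others were named for the size or p of the male difference, so the 29 are not an independent result. Of neuronal and synaptic genes, the male difference was the lower for Camk2b (-0.62), Unc13a (-0.66), Grin2b (-0.70), Dlg4 (-0.32), Snap91 (-0.42), Npy (-0.39), Map2 (-0.49), Kif3a (-0.46), Atcay (-0.73) and the adhesion gene Cadm3 (-0.62). Of glial and vascular genes it was the lower for Apoe (-0.49), Cd74 (-1.39), Bin1 (-0.29), Cxcl12 (-0.33), Cspg4 (-0.51), Bcas1 (-0.40), Mbp (-0.51), Cldn5 (-0.49), Pecam1 (-0.57) and Fn1 (-0.45). Of other genes it was the lower for Prpf31 (-0.71), Map2k2 (-0.72), Park7 (-0.23), Rnf10 (-0.87), the phosphatase gene Ptpn11 (-0.60), Tln2 (-0.69) and the G protein gene Gnai2 (-0.45). It was the higher for Cltc (0.31) and Rasgrp1 (0.28). Of these 29 calls, 18 remained after median centring, 22 after centring within panels, 22 after quantile normalization and 12 after housekeeping centring, and no sign turned under these 4.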

How the results depend on the processing

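The count of 640 called genes in males became 419 (156 higher, 263 lower) with housekeeping centring, and the 264 genes with a difference between the sexes became 56 (0 with the male value higher by limma, 56 lower); the cause was not tested. The other alternatives stayed within 1.5 times of each count. Leaving out each mouse in turn gave 566 (without P522R mouse 30) to 635 (without P522R mouse 29) in males, 211 to 289 between the sexes (both without a 5xFAD female, 1180 and 1189), and 567 to 636 against M28L males. Of the 106 named genes, 100 were called in males. Of these, 87 kept the call under every alternative that used all 12 males and tested the gene, 91 on leaving out each mouse and 93 in both fits of the 10 males that share an index, and none reversed. The last lost Itgax, Gpnmb, Fos, Psmb8, Npc2, Csf3r and Ptpn11. With the index number of the labels as a replicate block, 583 genes were called in those 10 males, against 655 in the same 10 males without the block, an alternative chosen after seeing the data. The same index is no evidence of pairing, since the correlations of deviations ranged from -0.48 to 0.12.

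The deposited values came already normalized by steps that are not given in the sources used here, and no label names an assay run. The median count of the 86 genes under a mean log2 of 4 was 9 to 15 per mouse, and single genes had fewer. P522R mouse 30 had less than the others on the 509-gene panel.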
